A study of Alligator mississippiensis with 17 samples.

Results

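Smooth muscle and mural cell genes were followed through the tooth replacement cycle of the American alligator. The 10 genes were chosen by name, with earlier results of these data known. Shares of all genes set beside their counts therefore describe the set and do not test it. Of the 10 genes, 8 had a row in the deposited table of 20703 genes: MYH11, ACTG2, TAGLN, CNN1, RGS5, NOTCH3, TPM2 and MYLK. ACTA2 and PDGFRB are not listed there under those symbols and were not analysed here. Of the 8 genes, 7 had their lowest mean level as deposited in replacement teeth. Against the stage before tooth initiation, the same 7 were called lower there (adjusted p under 0.05), beside 21.2% of all genes. Of these, 6 were also called lower in the dental lamina at early growth than at that stage, beside 7.58% of all genes. Against early growth, 2 of the 8 were called lower in replacement teeth (adjusted p under 0.05), beside 39% of all genes. After each library was scaled by its median ratio over genes, 0 were, beside 6.35%. TPM2 and NOTCH3 were then no longer lower than at early growth, with log2 differences of 0.02 and 0.07. CNN1 as deposited stayed within a 1.70-fold range over all 17 libraries, and its mean was lowest where those of 6 of the other 7 were highest. That place of its lowest mean depended on the scaling. After it, CNN1 differed from the stage before initiation by -0.13 at initiation, 0.003 at early growth and 0.25 in replacement teeth (log2).

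Smooth muscle cells and pericytes are the mural cells that wrap blood vessels. Contractile smooth muscle cells carry thin filaments of smooth muscle actin with tropomyosin, calponin and transgelin bound to them, and thick filaments of smooth muscle myosin, whose activity is switched on when myosin light chain kinase phosphorylates the myosin light chain. Many of these genes share serum response factor and its partner myocardin as regulators in mammals. Pericytes are recruited to endothelium by platelet-derived growth factor through PDGFRB and are maintained by Notch signals through NOTCH3. Calponin, transgelin and the tropomyosins are also made outside vessels, in fibroblasts and in epithelial cells with a contractile cytoskeleton.

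RNA was sequenced from tooth tissue of untreated alligators 1 year old, reared in a laboratory at 30 degrees. The dental lamina, the epithelial strand from which each new tooth buds, was taken at the pre-initiation stage (PIS, 5 libraries), the initiation stage (IS, 3 libraries) and the early growth stage (EG, 4 libraries). Replacement teeth (RT) gave 5 more libraries. The labels name no strain or genotype, and nothing in them says that tissue was unpooled or that each replicate is another animal. The p-values therefore reflect only the spread among libraries, which may be technical.

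Depth ran from 9667270 to 29195900 alignments in PIS, 22393100 to 25075900 in IS, 22368700 to 37747400 in EG and 25669500 to 37209700 in RT. A list of 13 epithelial genes summed to between 499.7 and 685 RPKM in 4 PIS libraries but to 109 in PIS replicate 5. The same list summed to 135 RPKM in RT replicate 3 against 504 to 785 in the other RT libraries, to 770 to 962 in IS and to 864 to 1194 in EG. Fibroblast genes were abundant in every lamina library (3738 to 12121 RPKM summed over 20 genes), so the dissected tissue was not epithelium alone. Skeletal muscle genes were near the bottom of the scale, at 2.02 to 4.18 RPKM summed over 16 genes in every library. In such bulk samples, fewer cells of a type and less RNA per cell cannot be told apart.

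Levels are given in RPKM, the reads of a gene scaled to the length of its model and to the aligned reads of the library, and group values are means ± SD over libraries. Values listed for a group are in replicate order.

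**Figure D1:**
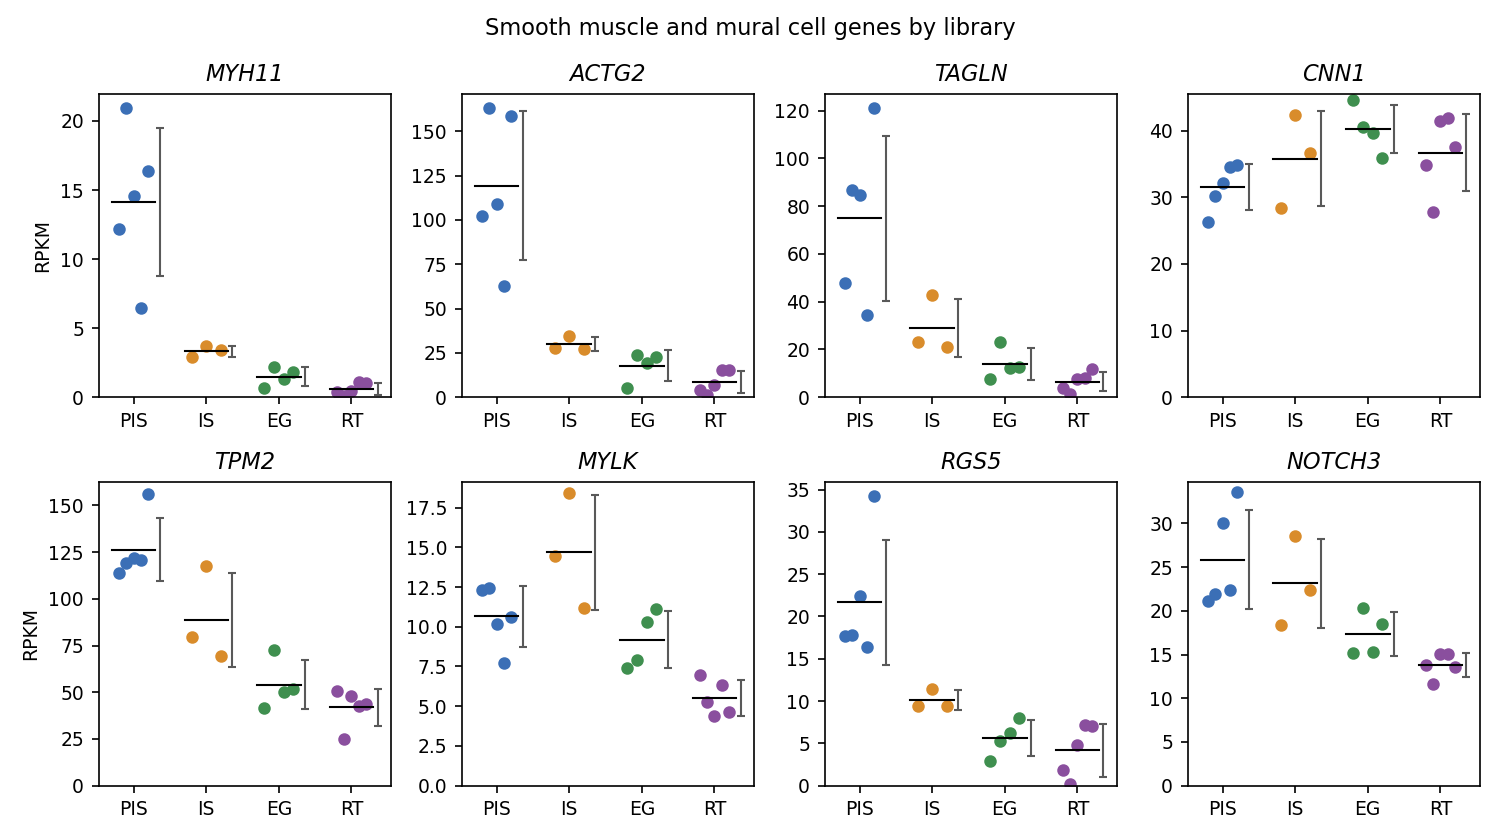
RPKM of the 8 genes in each of the 17 libraries, 1 panel per gene; each point is a library, each horizontal bar a group mean and each vertical bar that mean ± SD. MYH11, ACTG2 and RGS5 were higher in every PIS library than in any other, TAGLN overlapped between PIS and IS, and the CNN1 points lay between 26.3 and 42.4 RPKM in every group apart from 44.7 in EG replicate 1.

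The thick filament of smooth muscle is built from MYH11, the smooth muscle myosin heavy chain, whose expression is largely confined to that cell type in adult mammals. MYH11 measured 12.2, 20.9, 14.6, 6.44 and 16.4 RPKM in PIS, then 2.91, 3.69 and 3.39 in IS. It measured 0.641, 2.19, 1.34 and 1.79 RPKM in EG, then 0.343, 0.0640, 0.420, 1.13 and 1.03 in RT. Every PIS library lay above every other library, IS lay above EG and RT, and EG and RT overlapped. The group means were 14.1 ± 5.35, 3.33 ± 0.390, 1.49 ± 0.664 and 0.598 ± 0.462 RPKM, so that RT held 4.24% of the PIS mean.

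ACTG2 encodes the gamma actin of smooth muscle. It measured 102, 163, 109, 62.6 and 159 RPKM in PIS and 27.9, 34.3 and 27.3 in IS. EG libraries held 5.35, 24.0, 19.5 and 22.5 RPKM, and RT libraries 4.11, 1.38, 6.64, 15.1 and 15.6. PIS, IS and EG again formed 3 separate ranges in falling order, and RT overlapped EG. ACTG2 is nearly identical in coding sequence to other muscle actins, among them ACTA2, and the way reads common to several genes were counted is not given in the sources used here. Its level is uncertain to that extent.

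TAGLN, the actin-binding protein transgelin or SM22, is an early marker of the smooth muscle lineage. It stood at 47.6, 86.6, 84.5, 34.4 and 121 RPKM in PIS and at 23.0, 42.9 and 21.0 in IS. In EG it stood at 7.42, 23.2, 12.1 and 12.5 RPKM, and in RT at 3.68, 1.42, 7.49, 7.91 and 11.8. IS replicate 2 reached above PIS replicate 4, and EG replicate 2 above the lower 2 IS libraries, so neighbouring stages overlapped, whereas PIS was separate from EG and from RT.

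TPM2, a tropomyosin that lies along actin in muscle and in many other cells, had the highest mean level of the 8 genes over all libraries. Its levels were 114, 119, 122, 121 and 156 RPKM in PIS, 79.8, 117 and 69.2 in IS, 41.8, 72.5, 50.4 and 51.6 in EG, and 50.6, 25.2, 47.8, 42.7 and 44.0 in RT. IS replicate 2 lay within the PIS range, EG replicate 2 above IS replicate 3, and RT within or below the EG range. PIS shared no values with EG or RT.

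MYLK, the kinase that starts smooth muscle contraction, had another order. It measured 12.3, 12.4, 10.2, 7.73 and 10.6 RPKM in PIS, 14.4, 18.4 and 11.2 in IS, 7.40, 7.91, 10.3 and 11.1 in EG, and 6.97, 5.28, 4.36, 6.34 and 4.64 in RT. It was highest in IS (mean 14.7 ± 3.62 RPKM), PIS overlapped IS and EG, and the RT libraries lay below all 12 lamina libraries.

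RGS5, a regulator of G protein signalling and a widely used pericyte marker, measured 17.7, 17.8, 22.4, 16.3 and 34.2 RPKM in PIS and 9.45, 11.4 and 9.37 in IS. It measured 2.94, 5.26, 6.26 and 7.97 RPKM in EG and 1.85, 0.147, 4.78, 7.13 and 7.04 in RT. As for MYH11, the PIS, IS and EG ranges were separate and in falling order, with RT overlapping EG and reaching lowest in RT replicate 2.

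NOTCH3, the Notch receptor of vascular smooth muscle and pericytes, changed less. Its levels were 21.1, 22.0, 30.0, 22.3 and 33.6 RPKM in PIS, 18.4, 28.6 and 22.4 in IS, 15.2, 20.4, 15.3 and 18.5 in EG, and 13.8, 11.7, 15.1, 15.04 and 13.6 in RT. PIS overlapped IS, and IS overlapped EG, but PIS lay above EG, and EG lay above RT by a margin smaller than the spread of either group.

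CNN1, calponin 1, binds actin and slows the ATPase of myosin, and it marks differentiated smooth muscle in adult mammals. It measured 26.3, 30.2, 32.1, 34.5 and 34.8 RPKM in PIS and 28.4, 42.4 and 36.7 in IS. EG held 44.7, 40.6, 39.7 and 36.0 RPKM, and RT held 34.9, 27.8, 41.4, 41.9 and 37.5. The PIS, IS and RT ranges overlapped, and the EG libraries all lay above the PIS libraries.

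The first question is what happened at initiation. MYH11, ACTG2, RGS5 and TAGLN fell between PIS and IS, by 1.84 ± 0.33, 1.91 ± 0.42, 1.02 ± 0.28 and 1.29 ± 0.41 (SE) on the scale of log2(RPKM + 0.5), which understates changes of genes near 0. Their adjusted p-values by limma with Benjamini-Hochberg adjustment over 12684 genes were 0.00339, 0.00853, 0.0211 and 0.0389. The fall of MYH11 corresponds to a 3.59-fold and that of ACTG2 to a 3.75-fold lower level in IS. TPM2 differed by -0.53 (adjusted p = 0.0575), NOTCH3 by -0.15 (0.555), MYLK by 0.43 (0.115) and CNN1 by 0.17 (0.375), and none of these passed the threshold of 0.05.

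Because the genes were chosen with earlier results known, the shares of all genes given here and below are descriptions. The 4 of 8 genes that fell stand beside 2.25% of all genes tested that were called lower in IS. The 7 genes other than CNN1 had a median of -1.02 against 0.28 for all genes. The median gene was thus above 0, and after scaling each library by the median ratio over genes the same 4 genes and TPM2 fell (adjusted p = 0.0327 for TPM2), against 5.55% of genes. CNN1 then differed by -0.13, so its sign in this comparison depended on the scaling. MYH11, ACTG2 and RGS5 were the genes whose IS and PIS ranges did not overlap, as was the case for 27.1% of genes. TAGLN lost its call when any 1 of PIS replicates 2, 3 and 5, IS replicates 1 and 3 or EG replicates 3 and 4 was left out (adjusted p = 0.0517 to 0.148), and RGS5 lost it without IS replicate 1 (0.0848) or IS replicate 3 (0.0807). TPM2 gained a call without IS replicate 2 (0.0187) or EG replicate 2 (0.0414).

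From IS to EG, none of the 8 genes passed the limma test, and 5 of them (MYH11, TAGLN, RGS5, TPM2 and MYLK) had an unadjusted p under 0.05. Calls were few in this comparison, with 0.512% of genes lower (0.52% after scaling) and 1.64% higher in EG. The differences were -1.01 for MYH11, -0.91 for ACTG2, -1.08 for TAGLN, -0.86 for RGS5, -0.70 for TPM2, -0.64 for MYLK and -0.40 for NOTCH3, with adjusted p-values from 0.0996 to 0.363. Their median was -0.86 against 0.05 for all genes, and CNN1 differed by 0.18 (adjusted p = 0.631). The ranges were separate for MYH11, ACTG2, RGS5 and MYLK, as they were for 23% of genes. TPM2 passed without EG replicate 2 (adjusted p = 0.0491).

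Between PIS and EG, 6 of the 8 genes fell, against 7.58% of all genes. ACTG2 was 7.06-fold lower in EG, MYH11 7.23-fold, TAGLN 5.17-fold, RGS5 3.68-fold, TPM2 2.36-fold and NOTCH3 1.46-fold. The log2 differences were -2.82 ± 0.39, -2.85 ± 0.30, -2.37 ± 0.38, -1.88 ± 0.26, -1.24 ± 0.18 and -0.55 ± 0.17 (SE), with limma adjusted p-values of 0.000234, 7.72e-05, 0.000517, 0.000226, 0.000281 and 0.0177. MYLK differed by -0.20 (adjusted p = 0.353). The comparison uses the same PIS libraries as that of initiation, so the values of both are not independent.

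CNN1 was called higher in EG than in PIS, by 0.35 ± 0.13 (adjusted p = 0.0364), as were 42.9% of all genes, whose median difference was 0.34. After median-ratio scaling the difference of CNN1 was 0.00 (adjusted p = 0.991), and it lost its call without any 1 of PIS replicates 1 and 2 and EG replicates 1, 2 and 3 (adjusted p = 0.064 to 0.109). The 6 falls remained after scaling, when 15.4% of genes were called lower, and MYLK joined them at -0.53 (adjusted p = 0.0458). NOTCH3 missed the threshold without EG replicate 1 (0.0581) or EG replicate 3 (0.0557). Ranges did not overlap for 7 of the 8 genes, CNN1 included, as for 39.7% of genes.

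Replacement teeth are another tissue, in which a mineralising crown surrounds a vascular pulp. All 7 genes other than CNN1 were lower in RT than in PIS, where 21.2% of genes were called lower. ACTG2 was lower by 4.04 ± 0.52 on the log2 scale, a 16.4-fold difference, MYH11 by 3.75 ± 0.32, TAGLN by 3.56 ± 0.45 and RGS5 by 2.65 ± 0.51. TPM2 fell by 1.61 ± 0.19, MYLK by 0.89 ± 0.17 and NOTCH3 by 0.86 ± 0.15, and the limma adjusted p-values of the 7 genes were between 3.27e-07 and 0.00065. CNN1 differed by 0.21 ± 0.13 (adjusted p = 0.224). The median over the 7 genes was -2.65 and over all genes -0.002, and the same 7 were called after scaling, which here left the share of genes called lower at 21.2%. RT and PIS ranges were separate for those 7 genes and for 22.2% of all genes.

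Against IS, the same 7 genes were called lower in RT, among 30.7% of all genes, with 7.32% higher. MYLK was lower by 1.33 ± 0.20 (adjusted p = 0.000146), TAGLN by 2.27 ± 0.53 (0.00376) and MYH11 by 1.91 ± 0.37 (0.00125). ACTG2 (-2.13), RGS5 (-1.63), TPM2 (-1.07) and NOTCH3 (-0.71) were called as deposited but not after median-ratio scaling, when 12% of genes were lower. CNN1 differed by 0.04 (adjusted p = 0.855). RGS5 had an adjusted p of 0.0404, lost its call without any 1 of the 3 IS libraries (0.09 to 0.103) or RT replicate 1 (0.0661), and differed by -1.03 (adjusted p = 0.0389) without RT replicate 2. Ranges were separate for the 7 genes, as for 36.6% of genes.

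Against EG, the median difference of the 7 genes other than CNN1 was -0.77 in RT, beside -0.37 for all genes. MYH11 (-0.90, adjusted p = 0.0444) and MYLK (-0.69, adjusted p = 0.00909) were called lower in RT, where 39% of all genes were lower and 4.89% higher, and neither was called after scaling, when 6.35% were. TAGLN (-1.19, 0.055), ACTG2 (-1.22, 0.0787), RGS5 (-0.77, 0.249), TPM2 (-0.37, 0.148), NOTCH3 (-0.31, 0.114) and CNN1 (-0.14, 0.404) did not pass, and after scaling TPM2, NOTCH3 and CNN1 had differences above 0, of 0.02, 0.07 and 0.25. MYH11 lost its call when any 1 of 11 libraries was left out (PIS replicates 1 and 3, IS replicates 1 to 3, EG replicates 2 to 4 and RT replicates 1 to 3; adjusted p = 0.0505 to 0.125). TAGLN passed without PIS replicate 4, PIS replicate 5, EG replicate 1 or RT replicate 5 (0.0334 to 0.0484), and ACTG2 without EG replicate 1, RT replicate 4 or RT replicate 5 (0.0289 to 0.0453). Only MYLK and NOTCH3 had separate ranges, a property of 33.5% of genes.

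**Figure D2:**
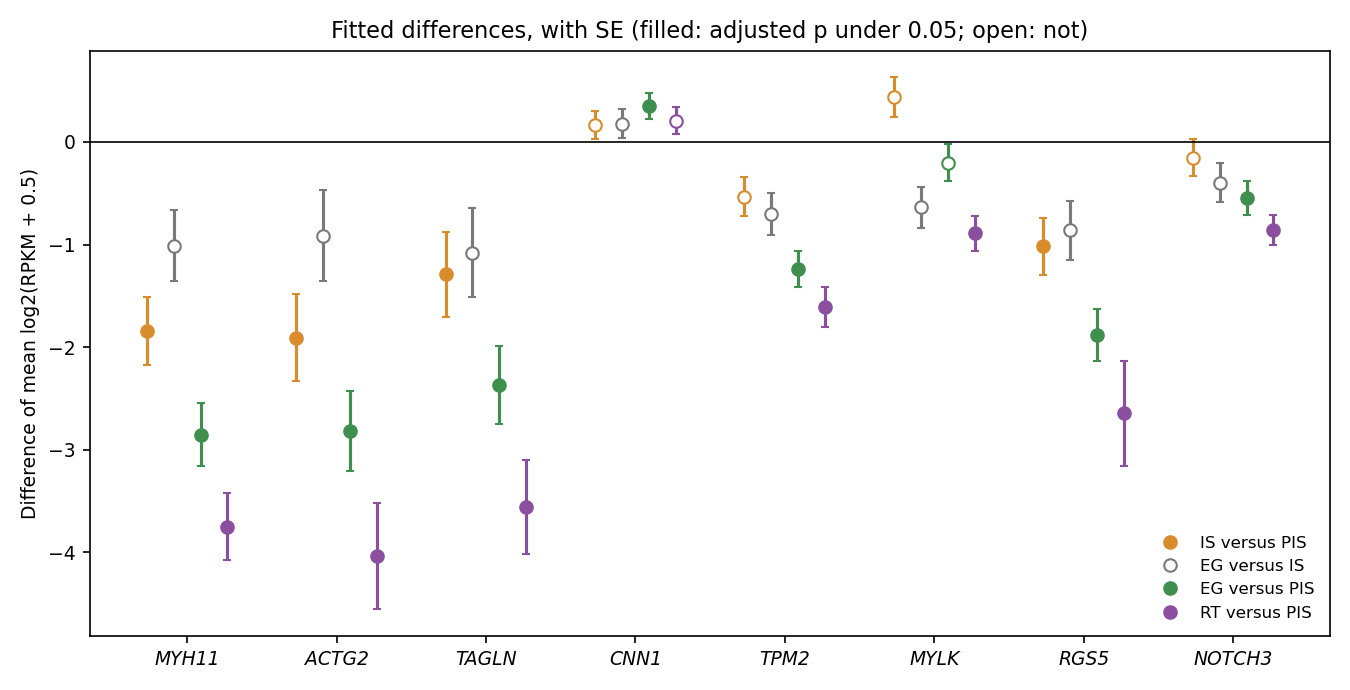
Difference between groups of each gene on the log2(RPKM + 0.5) scale, first group minus second, with SE bars, for IS, EG and RT each against PIS and for EG against IS; filled points passed an adjusted p of 0.05 and open points did not. Differences from PIS reach -4.04 for ACTG2 in RT, while the CNN1 points stay between 0.17 and 0.35.

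CNN1 was singled out with results of these data known, so its departure from the other genes is described here without a test. The log2 difference of CNN1 minus the median of the 7 other genes was 1.19 from PIS to IS, 1.04 from IS to EG and 2.23 from PIS to EG. For RT it was 2.85 against PIS, 1.67 against IS and 0.63 against EG. Relative to PIS, the mean of CNN1 stood at 113% in IS, 127% in EG and 116% in RT, whereas MYH11 stood at 23.6%, 10.5% and 4.24%. NOTCH3 and MYLK changed less than MYH11. NOTCH3 stood at 89.6%, 67.1% and 53.5%, and MYLK at 138%, 86.2% and 51.8%, so MYLK too had a higher mean in IS than in PIS.

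The difference between the highest and lowest group mean of CNN1 was 0.35 on the log2 scale, and 10.3% of 12904 genes had a smaller one. The same span was 4.04 for ACTG2, 3.75 for MYH11, 3.56 for TAGLN, 2.65 for RGS5, 1.61 for TPM2, 1.33 for MYLK and 0.86 for NOTCH3, and 0.69 for the median gene. As deposited, CNN1 was thus steadier than most genes, and each of the 7 others varied more than the median gene. These spans were taken without scaling and over genes of all levels, and no rank among genes of like level was made.

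Within single libraries the balance between calponin and its neighbours on the actin filament turned over. ACTG2 was above CNN1 in every PIS library, with a mean log2 ratio of CNN1 to ACTG2, taken on RPKM + 0.5, of -1.82, and below it in every library from EG (1.34) and RT (2.42). In IS the ratio was 0.25, between 0.02 and 0.42 in the 3 libraries. The ratio of CNN1 to TAGLN moved from -1.10 in PIS to 0.36 in IS, 1.62 in EG and 2.66 in RT, and that to MYH11 from 1.22 to 3.23, 4.42 and 5.18. TPM2 stayed more abundant than CNN1 on average in each group, with ratios of -1.98, -1.28, -0.40 and -0.17, and the ratio to MYLK was 1.54, 1.27, 2.09 and 2.63.

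**Figure D3:**
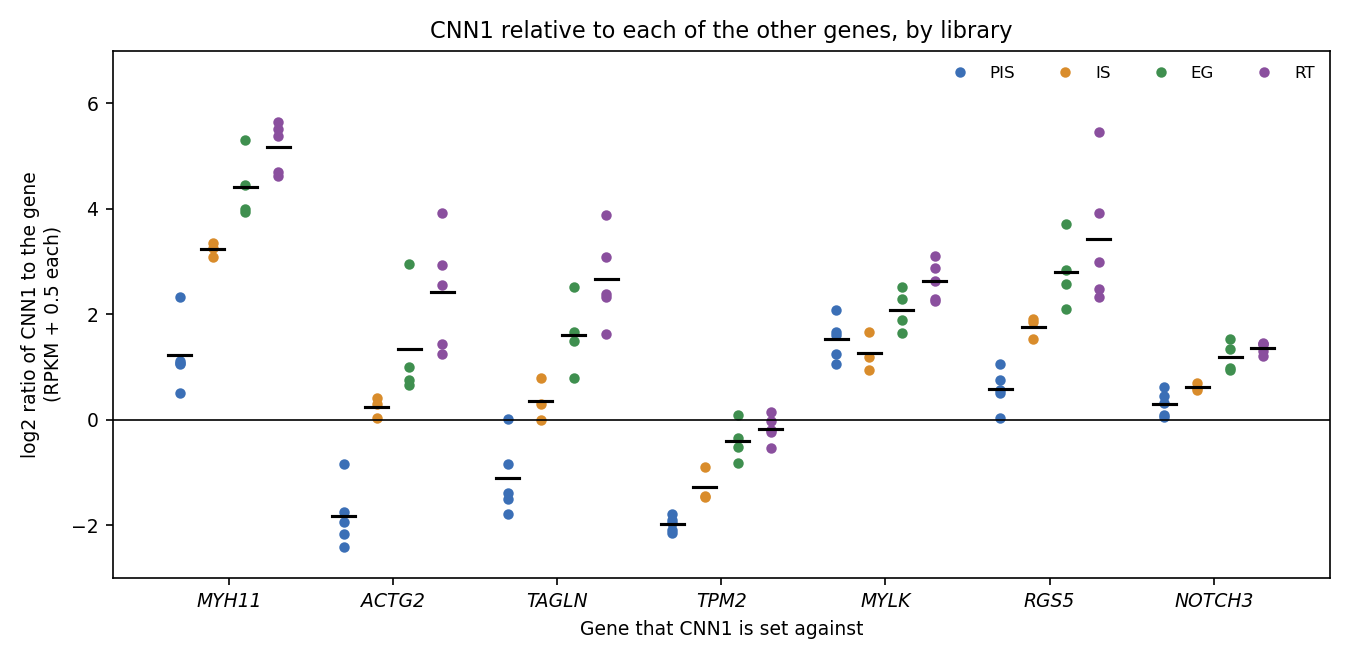
Log2 ratio of CNN1 to each of the 7 other genes, taken on RPKM + 0.5, by library and group, with group means as bars; a value of 0 means equal levels per length. The ratio to ACTG2 is below 0 in all PIS libraries and above 0 in all others. The ratios to all genes but MYLK have higher group means at each step from PIS to RT, and the ratio to MYLK has a lower mean in IS than in PIS.

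Replicates of 1 group also ordered CNN1 apart from other genes in some libraries and together with them in others. EG replicate 1 was the lowest EG library for all 7 other genes and the highest for CNN1. PIS replicate 4 was the lowest PIS library for MYH11, ACTG2, TAGLN, RGS5 and MYLK and the second highest for CNN1. In contrast, PIS replicate 1 was the lowest PIS library for CNN1, NOTCH3 and TPM2. PIS replicate 5 was the highest for CNN1, TAGLN, RGS5, NOTCH3 and TPM2. Likewise, IS replicate 2 was the highest IS library for all 8 genes, and RT replicate 2 was the lowest RT library for 7 of them, with MYLK the exception.

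Epithelial sums and CNN1 levels are set side by side here for some libraries, and a link between them was not tested. PIS replicate 5, whose epithelial sum was 109 RPKM, had the highest CNN1 level of its group (34.8 RPKM), and RT replicate 3, with a sum of 135, had a CNN1 level of 41.4, next to the RT maximum of 41.9. RT replicate 2 had the highest epithelial sum of its group (785 RPKM) and the lowest CNN1 level (27.8 RPKM). EG, however, had both the highest mean epithelial sum and the highest mean CNN1 level. In the RefSeq annotation of the assembly rAllMis1, no other gene overlaps CNN1, and its neighbours are LOC102573635 and ELOF1. ELOF1, looked at after the CNN1 values were seen, had mean levels of 24.0, 27.5, 28.9 and 18.8 RPKM in PIS, IS, EG and RT. MYH11 overlaps LOC109284926 in that annotation, and strand is not stated, so reads of both cannot be told apart.

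The other members of the calponin and transgelin family did not share 1 pattern. CNN2, a calponin of non-muscle and immune cells, had mean levels of 4.32 ± 1.92, 1.95 ± 0.664, 1.47 ± 0.522 and 0.807 ± 0.355 RPKM in PIS, IS, EG and RT. CNN2 was lower in EG than in PIS by 1.23 (adjusted p = 0.0064) and lower in RT than in PIS by 1.82 (adjusted p = 9.39e-05). CNN3, the calponin of many non-muscle cells, had means of 72.6 ± 21.5, 55.9 ± 1.83, 56.1 ± 5.17 and 56.8 ± 6.30 RPKM and passed in none of the 6 comparisons as deposited; after scaling it was lower in EG than in PIS (-0.67, adjusted p = 0.0181). TAGLN2, a transgelin of many tissues, had means of 123, 145, 146 and 115 RPKM, and TAGLN3, a neuronal relative, stayed under 1 RPKM in mean level in every group. CNN1 therefore had a lower level than CNN3 and TAGLN2 and a higher level than CNN2, per length, in each group.

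Among the actins, the cytoskeletal actin ACTG1 had means of 1548 ± 301, 2070 ± 310, 1419 ± 109 and 644 ± 232 RPKM. It was lower in RT than in PIS by 1.31 (adjusted p = 0.000212) and lower than in EG by 1.20 (adjusted p = 0.00211). The skeletal muscle actin ACTA1 lay at 5.47, 5.81, 4.37 and 2.65 RPKM, and the cardiac actin ACTC1 under 1 RPKM in mean level in every group.

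None of 7 regulators of contractile genes was called lower inside the lamina by limma, as deposited or after scaling. Few genes were called lower there as deposited, 2.25% from PIS to IS, 0.512% from IS to EG and 7.58% from PIS to EG. After scaling these shares were 5.55%, 0.52% and 15.4%. A count of 0 of 7 is close to the shares as deposited, and 7 genes are too few to set it apart from those after scaling. SRF, the serum response factor, had means of 14.4 ± 2.16, 15.6 ± 0.868, 17.6 ± 1.90 and 10.9 ± 1.14 RPKM in PIS, IS, EG and RT. MYOCD, the coactivator myocardin, measured 2.59, 2.61, 1.17, 1.25 and 1.08 RPKM in PIS and 1.25, 0.525 and 1.15 in IS. In EG it measured 3.22, 2.42, 4.74 and 4.41 RPKM, and in RT 0.850, 0.265, 0.342, 0.729 and 0.340. MYOCD was thus highest in EG, where MYH11, ACTG2 and TAGLN were already low, and EG overlapped the PIS range in EG replicate 2 only.

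MYOCD was higher in EG than in PIS by 0.94 (adjusted p = 0.0134, and 0.0722 after scaling) and higher than in IS by 1.51 (adjusted p = 0.0251). The second call was lost without any 1 of IS replicates 1 to 3 and EG replicates 1, 3 and 4 (highest adjusted p = 0.162). MYOCD was lower in RT than in PIS by 1.13 (adjusted p = 0.00226) and lower than in EG by 2.06 (adjusted p = 0.000136). Of the 7 genes of the SRF and myocardin list, 1 was called higher and 0 lower from PIS to IS, 2 higher and 0 lower from PIS to EG, and 0 higher and 5 lower from PIS to RT. Over all genes, 22.7% were higher and 2.25% lower from PIS to IS, and 42.9% and 7.58% from PIS to EG. From PIS to RT these shares were 20.3% and 21.2%. After scaling, no gene of the list was called in either of the first pair of comparisons, where MKL1, another myocardin family coactivator, had been called (0.55, adjusted p = 0.0207, and 0.54, adjusted p = 0.00673). FHL2, a LIM-domain protein that binds SRF, was lower in RT than in PIS by 2.88 (adjusted p = 8.5e-05).

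The lists that follow are read against shares of all genes called higher and lower of 22.7% and 2.25% in IS, 42.9% and 7.58% in EG and 20.3% and 21.2% in RT, each against PIS. Of 25 other contractile genes tested in the lamina, 2 passed as higher and 7 as lower between PIS and IS, with a median of -0.11 against 0.28 over all genes. LMOD1, the smooth muscle leiomodin that starts actin filaments, was lower by 1.57 (adjusted p = 0.00658), PDLIM3, a Z-line protein, by 1.53 (adjusted p = 0.00163) and NEXN, the actin-binding nexilin, by 0.70 (adjusted p = 0.00625). ACTN1, an alpha-actinin, was higher by 0.51 (adjusted p = 0.00785, and 0.29 after scaling).

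From PIS to EG, 2 contractile genes were called higher and 12 lower, with a median of -0.45. LMOD1 was lower by 2.15 (adjusted p = 0.000263), PDLIM3 by 1.64 (0.000182) and ITGA7, a laminin receptor of muscle, by 1.59 (0.001). HSPB6, a small heat shock protein abundant in smooth muscle, was higher by 2.71 (adjusted p = 0.000432), with 2.15 RPKM in PIS and 16.0 in EG. In RT, 3 of 26 were higher and 16 lower than in PIS, with LMOD1 (-2.69), NEXN (-2.70) and ITGA7 (-2.33) among those lower and HSPB6 (2.65), HSPB7 (1.64) and ITGA8 (1.46), an integrin of mesenchyme and smooth muscle, higher. After scaling the counts were 0 higher and 8 lower in IS, 1 and 15 in EG and 3 and 14 in RT.

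Pericyte and other mural genes showed 0 higher and 4 lower of 20 from PIS to IS, 0 and 12 from PIS to EG and 1 and 11 from PIS to RT. GUCY1A3 and GUCY1B3, the subunits of the nitric oxide receptor of vessel walls, were lower in EG than in PIS by 1.98 (adjusted p = 7.72e-05) and 1.26 (0.000443), and EDNRA, the endothelin receptor of smooth muscle, by 1.37 (0.00047). AOC3, an amine oxidase of smooth muscle, was lower in RT than in PIS by 3.28 (adjusted p = 1.05e-06). ABCC9, the sulphonylurea receptor of pericytes, was higher in RT than in PIS by 1.23 (adjusted p = 0.00119), with 1.65 RPKM in PIS and 4.75 in RT. GUCY1B3 was also higher in RT than in EG, by 1.15 (adjusted p = 0.0124), where RGS5 differed by -0.77 without passing.

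Among 22 ligands, receptors and targets of mural recruitment, 1 rose and 1 fell between PIS and IS, 3 rose and 10 fell between PIS and EG, and 6 were higher and 12 lower in RT than in PIS. JAG1, a Notch ligand that acts on NOTCH3 in vessel walls, was lower in RT than in PIS by 1.59 (adjusted p = 7.76e-06), and PDGFA by 1.40 (adjusted p = 4.59e-05). S1PR1, the sphingosine phosphate receptor of endothelium, was lower in EG by 1.52 (adjusted p = 0.000909), and ANGPT2, an endothelial antagonist of vessel stability, by 1.74 (0.000999). DLL1, a Notch ligand, was higher in EG than in PIS by 2.08 (adjusted p = 4.68e-05) and TGFB3 was higher in RT by 1.51 (0.000327).

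**Figure D4:**
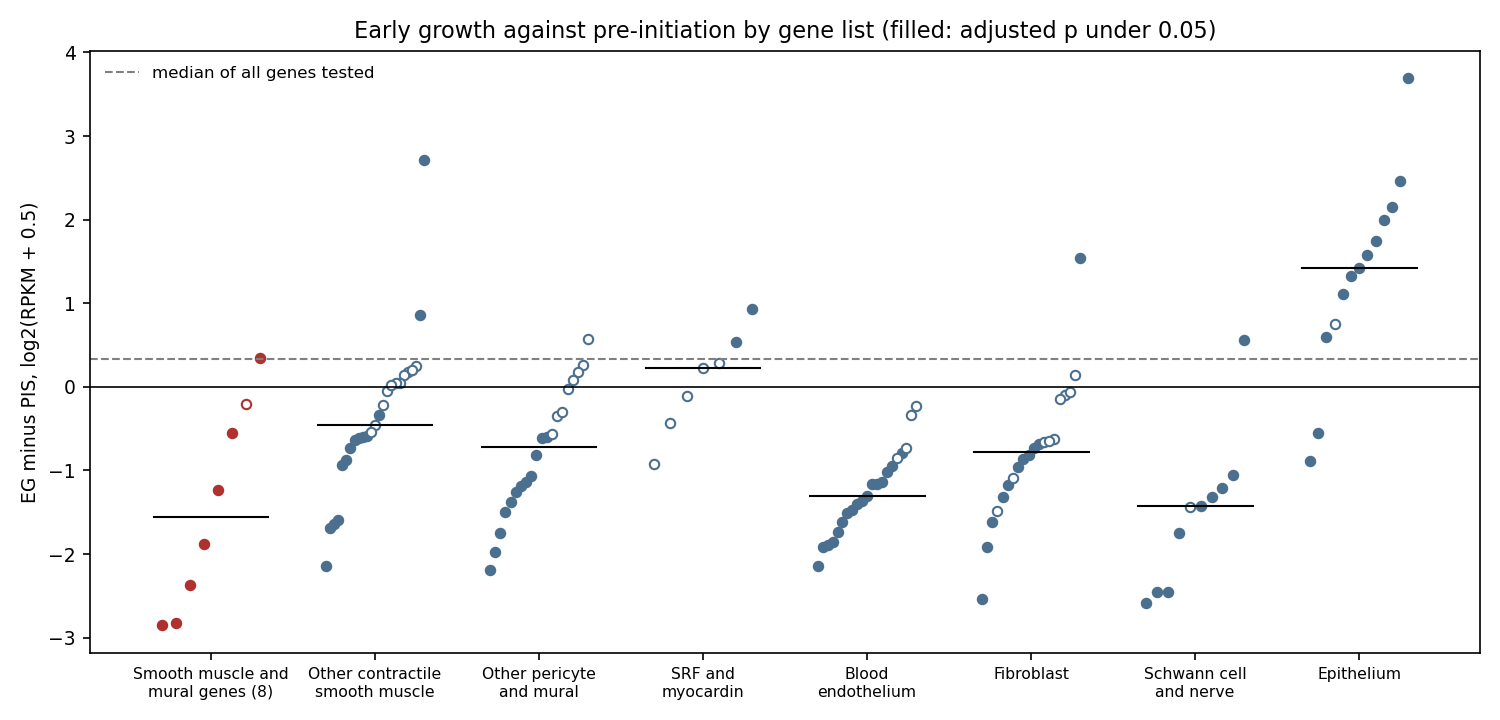
Log2 difference between EG and PIS of each gene in the lists of contractile, mural, endothelial and other cell type genes, 1 point per tested gene (filled where the adjusted p was under 0.05), with bars at list medians and a dashed line at the median of all genes, 0.34. The 8 genes followed here are at the left. The median is -1.31 for blood endothelium, -0.72 for pericyte genes and -0.45 for contractile genes other than the 8 followed here. It is -1.43 for Schwann cell and nerve, -0.77 for fibroblast, 0.23 for SRF and myocardin and 1.42 for epithelium.

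Markers of blood endothelium, of lymphatic endothelium and of Schwann cells and nerve were lower more often than higher in each comparison with PIS. Fibroblast markers were also lower more often than higher in EG and in RT, and in IS 1 was higher and 1 lower (1 and 2 after scaling). Epithelial markers did not keep to that pattern. Of 21 blood endothelial genes, 12 fell and 0 rose from PIS to IS, 17 fell and 0 rose from PIS to EG, and 15 were lower and 1 higher in RT, and the lamina differences of PECAM1, an endothelial adhesion molecule, were -1.41 in IS (adjusted p = 0.0101) and -1.85 in EG (0.000545). PECAM1 lost the IS call without IS replicate 1. The 21 genes summed to between 179 and 447 RPKM in PIS, 138 and 173 in IS, 95.5 and 171 in EG and 70.3 and 183 in RT, with none at 0 in all libraries of a group. Some extremes were those of most of the 8 genes, with PIS replicate 4 lowest (179), PIS replicate 5 highest (447), IS replicate 2 highest (173), EG replicate 1 lowest (95.5) and RT replicate 2 lowest (70.3). Others were not. The sum was lowest in IS replicate 1 (138) and highest in EG replicate 4 (171) and RT replicate 3 (183). Most of the 8 genes were instead lowest in IS replicate 3 and highest in EG replicate 2, and only NOTCH3 was highest in RT replicate 3.

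Schwann cell and nerve genes were lower for 4 of 10 genes in IS than in PIS and for 8 of 10 in EG, with 1 higher there, and their sum ran from 115 to 623 RPKM in PIS, 99.9 to 224 in IS and 89.7 to 161 in EG. Fibroblast genes were lower for 1 of 20 in IS and 10 of 20 in EG, with 1 higher in each. Lymphatic endothelial genes were lower for 1 of 5 in IS and 4 of 5 in EG. In RT against PIS, 13 fibroblast genes were lower and 3 higher of 20, 8 Schwann cell and nerve genes lower and 2 higher of 11, and 5 of 5 lymphatic genes lower, with medians of -1.72, -1.91 and -1.33. The summed level of the 20 fibroblast genes ran from 6911 to 44179 RPKM in RT against 6188 to 9768 in PIS. Most of each sum came from 2 collagen genes. COL1A1 measured 3675 to 27680 RPKM in RT and 2004 to 4350 in PIS, and COL1A2 1983 to 14643 in RT and 1760 to 2946 in PIS. The sum therefore does not show how the rest of the list changed. Of 13 epithelial genes, 0 passed in either direction from PIS to IS by limma, and 10 were higher and 2 lower in EG than in PIS; after scaling 4 were higher and 2 lower in EG, where 16.7% of all genes were then higher. The part of these other cell types in the results for the mural genes was not tested. Without PIS replicates 4 and 5 together, an alternative chosen after seeing the data, the count of genes called lower was the same in the lamina comparisons (4, 0 and 6 of 8).

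Over the 17 libraries, the gene most like MYH11 in level was ACTG2, with a Pearson correlation of 0.976 and a Spearman correlation of 0.993 among 9508 genes ranked, followed by TNFRSF1B (0.976), FRZB (0.973), LMOD1 (0.971) and MLKL (0.970). TAGLN came 9th for MYH11, TPM2 64th, RGS5 141st, NOTCH3 224th, MYLK 854th and CNN1 6173rd, with a correlation of -0.388. The genes most like CNN1 were SREBF1 (0.722), ATP6V1E1 (0.714), SH3RF1 (0.712), FHL3 (0.700) and PRKCB (0.693), and none of the 8 genes was among them. SH3RF1 fell to 0.573 when the 2 libraries farthest from the CNN1 median were left out.

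These coefficients describe 17 points that share 4 group levels. Once group means were removed, MYH11 still had a correlation of 0.923 with ACTG2, the highest of all genes ranked, and of 0.861 with TAGLN. By the same measure, the genes most like CNN1 were PCDH17 (0.861), SOX8 (0.843), NOG (0.838), TNK2 (0.821) and CSK (0.808). NOTCH3 (0.607), RGS5 (0.552), TPM2 (0.545), TAGLN (0.519), ACTG2 (0.321) and MYH11 (0.218) then had positive correlations with CNN1, and MYLK had a negative one (-0.230). Without the 2 libraries farthest from the median, these were 0.495 for NOTCH3, 0.220 for RGS5, 0.277 for TPM2, 0.226 for TAGLN, -0.029 for ACTG2 and -0.065 for MYH11, so the positive correlations other than that of NOTCH3 rested largely on those libraries.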

How the data were processed

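The RPKM values were deposited by the authors as 1 table for all 17 libraries, and every value column matched 1 sample title or description (0 columns unmapped). TopHat2 2.1.0 and Partek 3 are the tools named, per the submitters' processing notes, which state neither's role; libraries were made with the TruSeq kit from Trizol extracts, per the labels' protocols. The sources used here give no build, annotation or strand, and positions and sequences are therefore not shown. A label field that gives 1 stage for all samples was not used. Of the table's symbols, 11480 matched RefSeq (rAllMis1).

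Values were taken as log2(RPKM + 0.5) and fitted by group in limma 3.58.1 (R 4.3.3) with an empirical Bayes trend, keeping genes that reached 1 RPKM in 3 or more of the libraries fitted. IS, EG and PIS were compared in a fit of the 12 lamina libraries (12684 genes) and RT in a fit of all 17 (12904 genes). A call is a Benjamini-Hochberg adjusted p under 0.05 over all genes of the fit. The fit was tested on simulated data. Counts were not rebuilt, so no counting intervals are given.

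The 10 genes and 14 lists (227 genes) were chosen with earlier results of these data known. Lists are described by counts and medians. From each list, up to 3 called genes per direction with the smallest adjusted p could be named in a comparison, plus families of calponins, actins and SRF with their levels, and the 5 genes most like MYH11 and CNN1. The median beside CNN1 was planned over 9 genes and rests on the 7 with a row. Alternatives were pseudocounts of 0.1 and 1, no filter, a filter at a mean of 5 RPKM, scaling by quantiles or by median ratios, a fit without the trend, array weights, other library sets, each library left out in turn and a replicate block. Leaving out PIS replicates 4 and 5 together, or IS replicate 2, EG replicate 1 and RT replicate 2 together, was chosen after seeing the data.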

Additional observations from a re-analysis of the deposited data

Results flagged for a closer look

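TPM2 in PIS replicate 5 measured 156 RPKM, while the other 4 PIS libraries lay between 114 and 122, which set it apart from its group by Dixon's criterion. It was 1 of 24 sets of libraries tested (8 genes in the groups of 4 or 5 libraries), and about 1 set in 20 is picked out by chance. The same library had the highest PIS level of TAGLN, CNN1, RGS5 and NOTCH3 as well.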

How the results depend on the processing

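For 48 differences (8 genes in 6 comparisons), the alternative settings together gave 1296 values. Of these, 1209 stayed on the same side of the threshold, 61 lost a call and 26 gained one, and 0 called values changed sign. Of the 48 differences, 28 never changed side. The number of the 8 genes called was 4 from PIS to IS, but 2 with all 17 libraries in the fit and 2 to 5 with 1 library left out. From IS to EG it was 0, but 5 with array weights, when calls over all genes rose from 273 to 4015, and 0 to 1 with 1 library left out. For RT against IS it was 7, but 3 after median-ratio scaling, when the share of all genes called went from 38% to 26.3%. For RT against EG it was 2, but 1 with a pseudocount of 1, without a filter, with the stricter filter or with only those 2 groups fitted, 0 after median-ratio or quantile scaling, and 1 to 4 with 1 library left out. Median-ratio scaling took the share of all genes called for RT against EG from 43.9% to 15.6%. Array weights called CNN1 higher in RT than in PIS (0.36, adjusted p = 0.0407) and moved CNN1 minus the median of the other genes to 2.22 there.

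Samples were not paired by replicate number in the main fits. Deviations of same-numbered libraries from their group means correlated from -0.476 to 0.358. Libraries of different number were not set beside them, so these values cannot tell whether the numbers pair samples. With a replicate block, CNN1 minus the median moved to 0.99 from PIS to IS, RGS5 lost its call there (adjusted p = 0.0513) and TAGLN gained one for RT against EG (0.03).

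Calls over all genes from PIS to IS numbered 3166, but 1992 with the stricter filter, 1489 with median-ratio and 1546 with quantile scaling, 4850 with array weights, 1494 with only those groups fitted and 978 to 3343 with 1 library left out. From IS to EG they numbered 273, but 119 (filter), 107 (all 17 libraries), 940 (only those groups), 4015 (array weights), 597 without PIS replicates 4 and 5, 27 without IS replicate 2, EG replicate 1 and RT replicate 2 together, and 69 to 439 likewise. From PIS to EG, 6404 became 3982 (filter), 4078 and 4025 (scalings). For RT, 5359 against PIS became 3309 (filter), 4909 against IS became 3018 (filter) and 8151 (array weights), and 5659 against EG became 3767 (filter), 2017 and 2130 (scalings) and 8799 (array weights). After median-ratio scaling the calls split into 785 higher and 704 lower from PIS to IS (as deposited 2880 and 286), 2123 and 1955 from PIS to EG (5443 and 961), 1855 and 1545 for RT against IS (944 and 3965) and 1197 and 820 for RT against EG (631 and 5028). The cause was not tested. PIS replicate 3 had the lowest depth, and at low RPKM, as for MYH11 in RT, a few reads set the value.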
